A study of Mus musculus with 20 samples.

Results

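The extracellular matrix genes examined here were the collagens, laminins, matrix proteases and matrix glycoproteins of tanycytes and of the mediobasal hypothalamus around them. Members were taken by gene symbol: every collagen, laminin chain, TIMP, MMP and ADAMTS gene, together with Fn1, Sparc, Sparcl1, Dcn, Bgn, Lum, Acan, Bcan, Ncan, Tnc and Tnr, provided that the gene was listed in one of the deposited comparison tables. The rule found 41 of the 13845 genes listed there. Of these, 40 are matrix genes, and Col4a3bp, which encodes a ceramide transport protein, matched by its name alone.

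Ribosomes carrying a GFP-tagged L10a subunit were precipitated from mediobasal tissue, which comprised the arcuate nucleus with the median eminence (TRAP), and the bound RNA (immunoprecipitation) was sequenced beside the RNA of the same lysate (input). The tag was switched on by AAV-Dio2-Cre, whose Cre is driven by the Dio2 promoter, injected into the lateral ventricle at 12 weeks of age, with tissue taken 4 weeks later. The groups were control mice on high-fat diet (HFD, 4 pools), IR∆Tan mice on normal chow diet (NCD, 3 pools) and control mice on NCD (3 pools), each pool with both fractions, giving 20 libraries. IR∆Tan mice were IR fl/fl and Rosa26-L10-EGFP tg/wt, and so lost the insulin receptor where Cre was active. Controls were IR wt/wt and Rosa26-L10-EGFP tg/wt by the series text, whereas the sample labels call them IRmKate2. A pool held the hypothalami of 5 to 7 mice by the series text and of 4 to 7 by the protocol, from both sexes, so that animals cannot be told apart. HFD began at 4 weeks of age and lasted 8 weeks by the series text, although the methods give 12 weeks.

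Total counts were 29469000 to 59385000 per library, rounded to 5 digits, and the members together took 0.137% to 0.237% of them. Insr, the floxed gene, had 9.57 to 14.9 CPM (counts scaled to library size) in the immunoprecipitations of IR∆Tan mice and 36.3 to 39.0 CPM in those of NCD-fed controls. In the immunoprecipitation of NCD-fed controls, 14 of 14 tested tanycyte markers were higher than in the input (median log2 fold change 3.86), as were 10 of 10 markers of ciliated ependymal cells (5.70). The pulldown thus held marker RNA of both cell types that line the ventricle. In reporter mice given the virus, however, the paper saw no ependymal signal, and it describes the tagged ribosomes as specific to tanycytes. The source of the ependymal RNA was not tested.

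Brain matrix differs from that of most organs. Collagen IV and laminins form the basement membranes of vessels and of the pial surface, whereas the space between neurons and glia is filled by hyaluronan with lecticans (brevican, neurocan, aggrecan, versican) cross-linked by tenascin-R. Membrane-bound and secreted metalloproteinases (MMPs) and the ADAMTS family cleave these proteins, and TIMPs inhibit the proteases. Tanycytes line the floor of the third ventricle and send processes to the fenestrated capillaries of the median eminence, where they meet a basement membrane.

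The windows around the start sites of 4 genes on which the results turn are given first: Col23a1 (the member most enriched in the immunoprecipitation), Adamts2 and Tnr (the largest rises under HFD) and Timp4 (the largest fall). Each runs from 250 bases before to 50 bases after the start in RefSeq (GRCm38.p6), 5′ to 3′ on the strand of the gene, and so covers the proximal promoter and the first bases of the first exon. Capitals mark the GC box motif GGGCGG on either strand. The windows are chr11:51289670-51289969 (plus strand) for Col23a1, chr11:50601835-50602134 (plus strand) for Adamts2, chr1:159523519-159523818 (plus strand) for Tnr and chr6:115252156-115252455 (minus strand) for Timp4.
Col23a1: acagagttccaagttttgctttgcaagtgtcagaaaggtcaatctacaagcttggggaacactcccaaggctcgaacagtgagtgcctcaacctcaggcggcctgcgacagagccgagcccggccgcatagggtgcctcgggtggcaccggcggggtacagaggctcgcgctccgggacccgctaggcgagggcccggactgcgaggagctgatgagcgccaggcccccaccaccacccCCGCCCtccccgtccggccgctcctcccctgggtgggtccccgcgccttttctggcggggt
Adamts2: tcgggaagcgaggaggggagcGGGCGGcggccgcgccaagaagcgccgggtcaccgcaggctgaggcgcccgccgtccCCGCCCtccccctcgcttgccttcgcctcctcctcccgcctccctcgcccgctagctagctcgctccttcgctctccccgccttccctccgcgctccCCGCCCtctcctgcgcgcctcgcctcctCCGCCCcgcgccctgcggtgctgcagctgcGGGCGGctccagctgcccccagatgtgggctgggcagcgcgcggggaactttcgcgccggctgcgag
Tnr: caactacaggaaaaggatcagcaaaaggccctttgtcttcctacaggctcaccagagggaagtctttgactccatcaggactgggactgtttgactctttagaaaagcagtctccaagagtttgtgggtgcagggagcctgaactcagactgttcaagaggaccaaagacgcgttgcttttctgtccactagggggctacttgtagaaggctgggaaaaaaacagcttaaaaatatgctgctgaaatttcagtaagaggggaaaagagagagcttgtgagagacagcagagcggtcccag
Timp4: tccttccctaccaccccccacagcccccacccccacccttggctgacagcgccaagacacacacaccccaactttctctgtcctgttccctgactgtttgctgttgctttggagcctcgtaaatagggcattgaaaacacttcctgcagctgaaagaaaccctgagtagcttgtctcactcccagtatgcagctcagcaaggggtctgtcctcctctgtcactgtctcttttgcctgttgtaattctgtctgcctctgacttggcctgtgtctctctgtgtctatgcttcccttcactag
The motif occurred 5 times in the Adamts2 window and 1 time in that of Col23a1, whose GC content was 77.3% and 67.7%. These letters were not in the Tnr and Timp4 windows, with GC contents of 48% and 53.3%. A window was found for 27 of the 41 members. GGGCGG was in 72.4% of the 29 windows of members, in 60.5% of the windows of tested genes and in 35.7% of all windows of this length. For CCAAT on either strand the shares were 27.6%, 37.5% and 37.4%, and for TATAAA 10.3%, 7.66% and 13.6%. A match is a description of the letters in the window only.

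Levels of different genes were compared as mean CPM per kb of exonic sequence, with CPM scaled by the TMM method over all libraries. In the immunoprecipitation of NCD-fed controls the highest members were Timp2, an inhibitor that also takes part in the activation of pro-MMP2 (61.0 CPM per kb), Sparc, a collagen-binding glycoprotein (53.5), Sparcl1 or hevin, a synaptogenic relative of Sparc made by astrocytes (44.0), and Timp3, the TIMP that stays bound to matrix (20.4). Col23a1, a transmembrane collagen, followed at 15.3 CPM per kb. In the inputs of the same mice the order differed, with Sparcl1 at 215 CPM per kb, Sparc at 143, Timp2 at 74.3 and Col23a1 at 0.390. The fibrillar collagens Col1a1 and Col1a2 had 0.169 and 0.161 CPM per kb in this immunoprecipitation, and Lum, a small leucine-rich proteoglycan of fibrous tissue, had 0.151. The 5 most abundant members took 62.7% of the summed member CPM in the immunoprecipitations and 75.6% in the inputs of NCD-fed controls. The collagens of connective tissue were thus among the scarce members.

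The first question was which matrix genes were carried by the tagged ribosomes more than by the tissue as a whole. All fold changes below are on the log2 scale with their standard error (SE), and a gene was called at an adjusted p under 0.05 by edgeR's quasi-likelihood test. In HFD-fed controls 8 of 40 tested members were enriched over the input and 11 depleted, where 31.6% of all genes tested were higher and 23.1% lower. In IR∆Tan mice 6 of 38 were enriched and 14 depleted, where 34.3% and 32.8% of all genes were called. In NCD-fed controls 6 of 40 were enriched and 16 depleted, where 36% and 32.8% of all genes were called. The median in NCD-fed controls was -0.27 for members and 0.03 for all genes.

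The split depended on the scaling. With library totals in place of TMM the median of all genes was 0.52 for HFD-fed controls, 0.31 for IR∆Tan mice and 0.39 for NCD-fed controls. Members called higher and lower then numbered 16 and 3 in HFD-fed controls, where 65.2% and 6.27% of all genes were called. They numbered 10 and 11 in IR∆Tan mice (47.2% and 20.4% of all genes) and 11 of each in NCD-fed controls (51.2% and 18.2% of all genes). With TMM, of 37 members tested in all groups, 4 were higher in each (Col23a1, Timp1, Lamb2 and Adamts20) and 9 lower in each (Sparcl1, Tnr, Sparc, Mmp16, Adamtsl4, Mmp12, Mmp17, Timp2 and Col4a3bp). Of the 9, Timp2 changed sign with library totals in all groups, and Tnr, Adamtsl4 and Mmp17 did so in HFD-fed controls, where the calls of Mmp12, Mmp16 and Col4a3bp were also lost with library totals.

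**Figure D1:**
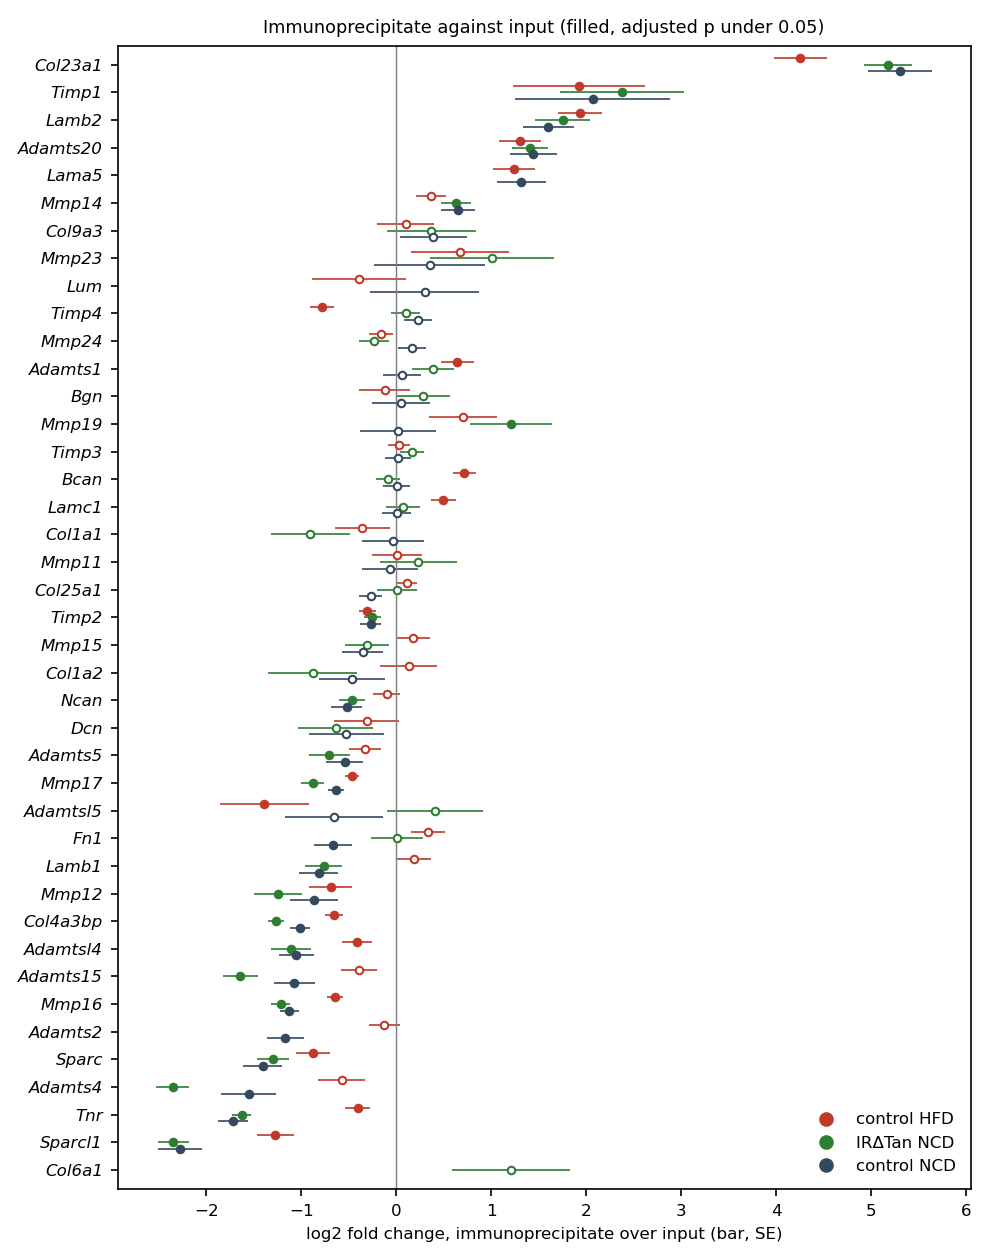
Log2 fold change of each member, immunoprecipitation over input, with its SE, in each group (HFD-fed controls, IR∆Tan, NCD-fed controls). Filled points have an adjusted p under 0.05, and Col23a1 lies apart from all other members, at 4.25, 5.18 and 5.30 in these groups.

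Col23a1 stood far from the rest. It had 62.3, 32.4, 51.3 and 80.2 CPM in the immunoprecipitations of HFD-fed controls and 2.72, 2.96, 2.41 and 4.1 CPM in their inputs. In IR∆Tan mice it had 91.2, 75.1 and 134 CPM in the immunoprecipitations and 2.72, 2.85 and 2.63 CPM in the inputs. In NCD-fed controls the values were 109, 91.1 and 63.4 CPM and 2.68, 2.25 and 1.78 CPM. No immunoprecipitation came near an input in any group, and the log2 fold change in NCD-fed controls was 5.30, SE 0.34 (adjusted p = 8.31e-09, edgeR). Col25a1, another transmembrane collagen, known from amyloid plaques, had 53.0, 43.4 and 44.0 CPM in the immunoprecipitations and 52.4, 62.0 and 56.6 CPM in the inputs of NCD-fed controls. The main fit called it in no group, but its direction depended on the setting. DESeq2 called it lower in NCD-fed controls (-0.30; adjusted p = 0.0328). By edgeR it was called higher with library totals in HFD-fed controls (0.58; adjusted p = 6.98e-05). In IR∆Tan mice it was called higher by edgeR with a trend in gene length removed (0.48; adjusted p = 0.0425).

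The laminin chains, which assemble as trimers of an alpha, a beta and a gamma chain, did not move together. Lamb2, a beta chain of the neuromuscular synapse and of vessel walls, was higher in the immunoprecipitation of HFD-fed controls (1.93, SE 0.23), IR∆Tan mice (1.75, SE 0.29) and NCD-fed controls (1.60, SE 0.27). Lama5, an alpha chain of mature basement membranes, had 2.48, 3.03 and 2.44 CPM in the immunoprecipitations and 0.946, 0.990 and 1.29 CPM in the inputs of NCD-fed controls (1.32, SE 0.26; adjusted p = 0.000384). The beta chain Lamb1 was lower in the immunoprecipitations of NCD-fed controls (-0.81, SE 0.21; adjusted p = 0.0026). Lamc1, the gamma chain shared by most laminins, was higher than in the input on HFD (0.50, SE 0.13; adjusted p = 0.00531), a call lost without HFD pool 3, and not called on NCD (0.00, SE 0.15). With library totals edgeR called Lamc1 higher on NCD (0.35; adjusted p = 0.0384). With TMM 2 of the 4 chains tested on NCD were higher than in the input and 1 was lower, where 36% and 32.8% of all genes were called.

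Among the inhibitors, Timp1 was enriched but scarce and uneven. It had 0.668, 2.25 and 0.679 CPM in the immunoprecipitations and 0.179, 0.495 and 0.192 CPM in the inputs of NCD-fed controls (2.07, SE 0.82; adjusted p = 0.0356, edgeR), and the call was lost with the length trend removed and without any 1 of the 3 NCD pools. Timp3 (0.02, SE 0.14) and Timp4 (0.23, SE 0.14) were not called on NCD with TMM. With library totals edgeR called both higher, Timp3 at 0.37 (adjusted p = 0.0262) and Timp4 at 0.58 (adjusted p = 0.00151). Timp2 was at -0.27, SE 0.11, and at 0.08 with library totals.

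The proteases were found in both directions. Mmp14, the membrane protease that activates pro-MMP2, had 7.94, 9.66 and 7.41 CPM in the immunoprecipitations of NCD-fed controls and 5.19, 5.36 and 5.5 CPM in the inputs (0.65, SE 0.18; adjusted p = 0.00471). Adamts20, a versican-cleaving protease whose loss gives mice a belted coat, had 13.9, 9.89 and 11.5 CPM and 4.88, 4.04 and 4.22 CPM (1.44, SE 0.25; adjusted p = 0.000108). Both were enriched without overlap between the fractions. The aggrecanase Adamts4 was depleted, with 6.19, 8.51 and 10.6 CPM in the immunoprecipitations and 25.2, 22.6 and 27.0 CPM in the inputs (-1.55, SE 0.29). The membrane proteases Mmp16 (-1.13, SE 0.10) and Mmp17 (-0.64, SE 0.08), the macrophage elastase Mmp12 (-0.87, SE 0.25), and Adamts2, Adamts5 and Adamts15 (-1.17, -0.54 and -1.07) were also lower than in the input. The Mmp12 call was lost with library totals, and that of Adamts5 with library totals, with the length trend removed and without NCD pool 3.

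Of the members Tnr, Ncan and Bcan, 2 were lower than in the input on NCD, where 32.8% of all genes were lower. With 3 genes this share cannot be set against that of all genes. Tnr, which encodes tenascin-R of oligodendrocyte lineage cells and some neurons, had 78.6, 65.6 and 82.4 CPM in the immunoprecipitations of NCD-fed controls and 248, 256 and 249 CPM in the inputs (-1.72, SE 0.16; adjusted p = 2.33e-07, edgeR). Sparcl1 was the most depleted member (-2.28, SE 0.24), and Sparc (-1.41, SE 0.21) and fibronectin, Fn1 (-0.66, SE 0.20), were also lower. The Fn1 call was lost with library totals, with the length trend removed and without NCD pool 2 or 3. Neurocan, Ncan, was at -0.52, SE 0.16, a call lost with library totals, whereas brevican, Bcan, was not called on NCD (0.00, SE 0.14). With library totals edgeR called Bcan higher on NCD (0.36; adjusted p = 0.0126). Markers of other cells were mostly lower than in the input in the same libraries: 10 of 10 of oligodendrocyte precursors (median -1.51), 10 of 10 of oligodendrocytes (-1.87), 9 of 9 of microglia (-1.69), 10 of 11 of neurons (-1.15) and 8 of 12 of astrocytes (-1.20), with 2 of the 12 higher. Of the markers of vessels, where laminins and collagen IV are also made, 2 of 4 of endothelial cells were higher than in the input (median 0.35), and of 6 of mural cells 2 were higher and 3 lower (-0.89). The endothelial values differed between groups. In HFD-fed controls 0 of the 4 tested of 12 listed were higher and 2 lower (median -0.80). In IR∆Tan mice 1 of 5 was higher and 0 were lower (0.30). None of these markers was at 0 throughout a group, and their part in the matrix results was not tested. Both fractions of a pool came from the same lysate. Between groups of mice, fewer cells of a type and less RNA per cell cannot be told apart in bulk RNA.

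The second question was how HFD feeding altered these genes in controls. In the immunoprecipitations 12 of 40 members were higher under HFD and 3 were lower, where 26.3% of all genes tested were higher and 25.8% lower. The share of members that rose was thus near the background. The median was 0.18 for members and -0.03 for all genes. For 12 members the HFD and NCD pools did not overlap, 10 higher and 2 lower, where 45.3% of all genes had pools that did not overlap. Members that rose were Adamts2, Tnr, Lamb1, Sparcl1, Adamts4, Mmp15, Adamtsl4, Bcan, Adamts1, Adamts5, Lamc1 and Mmp16, and those that fell were Timp4, Adamts20 and Col23a1.

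**Figure D2:**
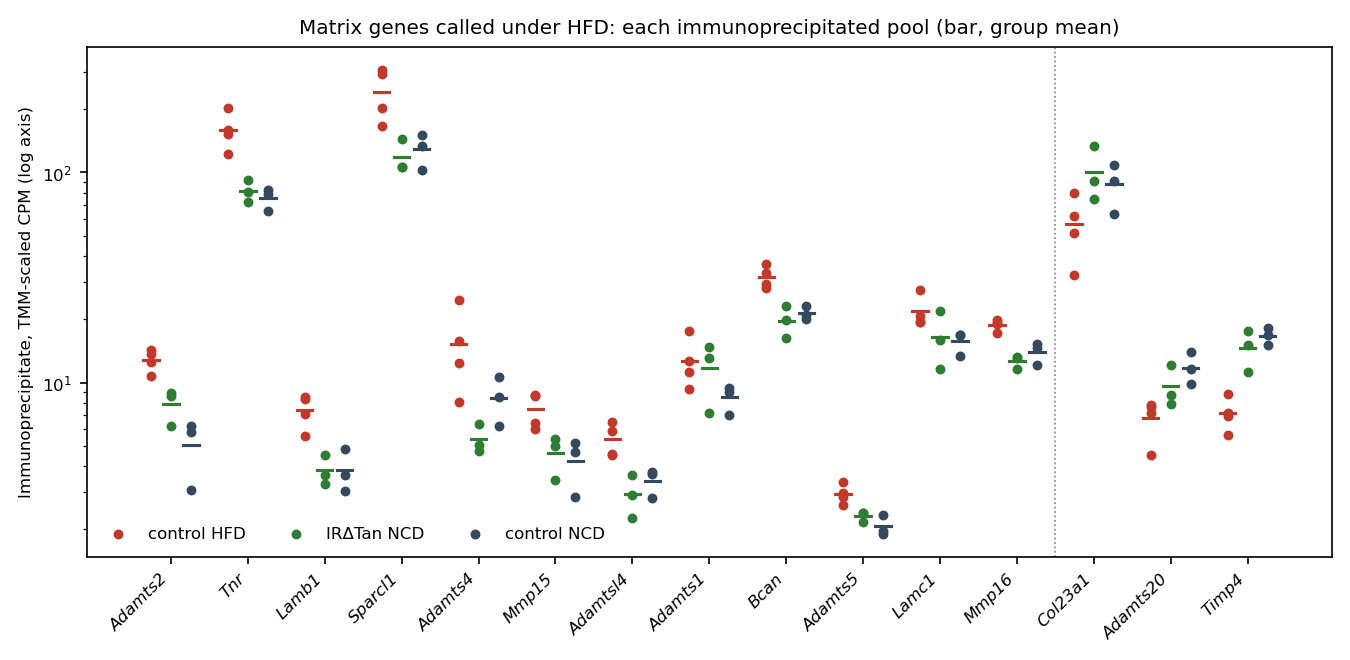
TMM-scaled CPM (log axis) of the 15 members called between diets, in each immunoprecipitated pool of HFD-fed controls, IR∆Tan mice on NCD and NCD-fed controls, with bars at the group means. For Timp4 all HFD pools lie below all NCD pools, for Tnr and Adamts2 above them, and for Col23a1 the diets overlap.

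Of the inhibitors, only Timp4, a TIMP found in brain and heart, was called. It fell to 7.14, 6.89, 5.65 and 8.86 CPM in the immunoprecipitations of HFD-fed controls, against 18.1, 16.8 and 15.1 CPM in those of NCD-fed controls. All HFD pools lay below all NCD pools (-1.22, SE 0.13; adjusted p = 1.23e-05, edgeR). In the inputs it had 11.4, 12.3, 11.5 and 14.4 CPM on HFD and 15.4, 13.6 and 14.1 CPM on NCD, ranges that overlapped (-0.21, SE 0.13; adjusted p = 0.35). The difference between the fractions was -1.01, SE 0.19 (adjusted p = 0.00103), and on HFD Timp4 was below its own input (-0.78, SE 0.13). In the immunoprecipitation Timp1 (0.14, SE 0.68), Timp2 (0.07, SE 0.10) and Timp3 (-0.12, SE 0.13) were not called between diets.

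Tenascin-R and brevican moved the other way. Tnr had 122, 202, 152 and 159 CPM in the immunoprecipitations of HFD-fed controls and 78.6, 65.6 and 82.4 CPM in those of NCD-fed controls, without overlap (1.08, SE 0.15; adjusted p = 4.56e-05, edgeR). In the inputs it had 226, 181, 197 and 245 CPM on HFD against 248, 256 and 249 CPM on NCD (-0.24, SE 0.14; adjusted p = 0.315), with all HFD inputs below all NCD inputs, and the difference between the fractions was 1.31, SE 0.20 (adjusted p = 0.000305). Bcan, the lectican bound to glial and neuronal surfaces, rose to 28.1, 33.3, 29.6 and 36.5 CPM in HFD pools, against 23.1, 20.9 and 20.1 CPM in NCD pools (0.58, SE 0.13; adjusted p = 0.00204). Ncan was not called (0.24, SE 0.15; adjusted p = 0.186).

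Sparcl1 rose to 167, 307, 203 and 295 CPM in HFD pools, against 134, 103 and 151 CPM in NCD pools (0.91, SE 0.21; adjusted p = 0.00261). Its relative Sparc had 184, 260.3, 211 and 320.4 CPM on HFD and 212, 167 and 229 CPM on NCD, which overlap (0.27, SE 0.19; adjusted p = 0.249). The laminin chains Lamb1 and Lamc1, which join in the classical laminins, both rose. Lamb1 had 5.54, 8.34, 7.06 and 8.52 CPM on HFD against 4.82, 3.65 and 3.03 CPM on NCD (0.94, SE 0.19; adjusted p = 0.00105). Lamc1 had 20.7, 19.5, 27.7 and 19.5 CPM against 16.9, 16.9 and 13.4 CPM (0.48, SE 0.14; adjusted p = 0.0119), a call lost with the length trend removed or without NCD pool 3. Lamb2 (0.36, SE 0.24) and Lama5 (0.17, SE 0.23), the chains enriched in the pulldown, were not called.

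Of 6 ADAMTS proteases tested, 4 rose and 1 fell under HFD, where 26.3% of all genes rose and 25.8% fell. Adamts2, which removes the amino-terminal propeptide of procollagens, had 10.7, 13.6, 14.2 and 12.5 CPM in HFD pools and 5.8, 3.07 and 6.23 CPM in NCD pools (1.35, SE 0.19; adjusted p = 5.42e-05). The lectican-cleaving proteases Adamts4 (0.86, SE 0.27), Adamts1 (0.58, SE 0.19) and Adamts5 (0.52, SE 0.18) also rose. Each of these 3 lost the call when the immunoprecipitations were fitted alone. Adamts4 also lost it without HFD pool 2 or NCD pool 1, Adamts1 without HFD pool 3 or NCD pool 1, and Adamts5 with the length trend removed and without HFD pool 2 or 4 or NCD pool 1 or 2. Adamts4 had 8.1, 24.7, 15.7 and 12.4 CPM on HFD and 6.19, 8.51 and 10.6 CPM on NCD, so that its lowest HFD pool lay among the NCD pools. Adamts20 fell to 7.81, 7.15, 4.52 and 7.66 CPM, against 13.9, 9.89 and 11.5 CPM (-0.79, SE 0.22; adjusted p = 0.00804), a call lost without NCD pool 1. In the inputs Adamts20 had 2.88, 3.34, 1.67 and 3.31 CPM on HFD and 4.88, 4.04 and 4.22 CPM on NCD, again without overlap (-0.65, SE 0.24; adjusted p = 0.0915).

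Among 9 MMPs tested, the membrane-type proteases Mmp15 (0.83, SE 0.20; adjusted p = 0.00343) and Mmp16 (0.43, SE 0.09; adjusted p = 0.00134) rose. Of the 9, 22.2% thus rose and 0 fell, where 26.3% of all genes rose and 25.8% fell. Mmp15 had 6.0, 8.73, 6.43 and 8.63 CPM in HFD pools and 4.65, 2.84 and 5.15 CPM in NCD pools. Mmp16 had 17.2, 19.9, 19.1 and 19.0 CPM in HFD pools and 14.6, 15.2 and 12.2 CPM in NCD pools. Neither overlapped between the diets. Mmp12 had 1.57, 1.19, 1.52 and 0.946 CPM on HFD and 1.5, 1.97 and 2.34 CPM on NCD (-0.56, SE 0.24; adjusted p = 0.0632), and was called lower by DESeq2 (-0.58; adjusted p = 0.0487), with the length trend removed (-0.68; adjusted p = 0.0288), with all 20 libraries, and without HFD pool 1 or NCD pool 1. The related Mmp14 (-0.34, SE 0.17), Mmp17 (0.07, SE 0.08) and Mmp24 (0.00, SE 0.14) were not called. Adamtsl4, a microfibril-associated protein without a protease domain, had 4.5, 6.5, 5.9 and 4.56 CPM on HFD and 2.82, 3.68 and 3.73 CPM on NCD (0.66, SE 0.17; adjusted p = 0.00568).

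Of the 5 collagens tested between diets, Col23a1 alone was called in the immunoprecipitations by edgeR, where 52.1% of all genes were called. For Col23a1, whose pool values are given above, the HFD and NCD pools overlapped (-0.63, SE 0.25; adjusted p = 0.0423). Its call was lost with DESeq2, with library totals, with all genes of the count table and with the immunoprecipitations alone, and without any 1 of HFD pools 1, 2 and 3 and NCD pools 1 and 2. The fibrillar collagens Col1a1 (-0.16, SE 0.31) and Col1a2 (0.50, SE 0.33) and the proteoglycans Dcn, Bgn and Lum (0.29, -0.12 and 0.05) were not called.

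**Figure D3:**
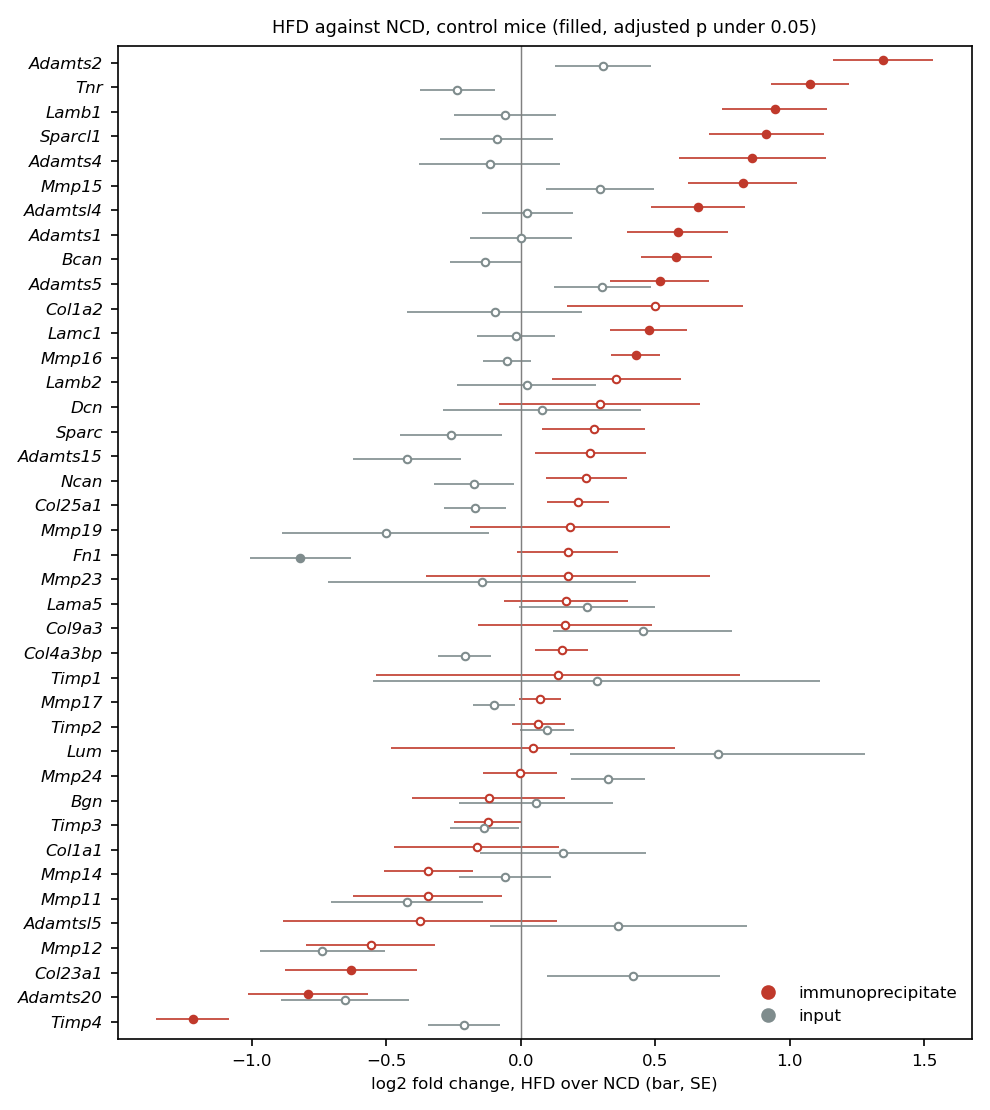
Log2 fold change of each member, HFD over NCD in controls, with its SE, in immunoprecipitations and in inputs. Filled points have an adjusted p under 0.05: 15 members in the immunoprecipitations and 1, Fn1, in the inputs.

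In the inputs 0 of 40 members were higher and 1 was lower, where 7.13% of all genes were higher and 4.22% lower. Fn1, which encodes fibronectin, fell to 6.7, 6.55, 7.27 and 8.79 CPM in HFD inputs, against 9.82, 16.1 and 13.1 CPM in NCD inputs (-0.82, SE 0.19; adjusted p = 0.0119, edgeR), a call lost without NCD pool 2 or NCD pool 3. In the immunoprecipitations it had 6.32, 9.66, 11.2 and 9.46 CPM on HFD and 8.12, 8.59 and 7.67 CPM on NCD (0.18, SE 0.19). When the inputs were fitted alone, 7 members were called, with Adamts2 and Mmp24 higher and Fn1, Mmp12, Col4a3bp, Adamts15 and Adamts20 lower, where 31.2% of all genes were called. DESeq2 called 3, all lower (Fn1, Mmp12 and Adamts20), where it called 15.1% of all genes in either direction. At an unadjusted p under 0.05 there were 5 members by edgeR, against 26% of all genes. By each of these rules the share of members was below that of all genes.

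An interaction term tested whether the diet difference was unlike between the fractions. It was called for 10 of 40 members, 9 higher and 1 lower, where 21.3% of all genes were higher and 18.8% lower. The 9 were Tnr, Adamts2, Sparcl1, Lamb1, Fn1, Bcan, Adamtsl4, Mmp16 and Col4a3bp, with values of 0.36 to 1.31, and the gene on the lower side was Timp4. Of the 12 genes that rose in the immunoprecipitation, 7 were among the 9. The interaction term contains the immunoprecipitation difference, so some overlap is built in. The matching share of all genes is not given here. Adamtsl4 (0.63, SE 0.24; adjusted p = 0.049) and Col4a3bp (0.36, SE 0.14; adjusted p = 0.0497) lay at the threshold, and leaving out any pool other than HFD pool 1 lost both calls. Sparcl1 lost its call without HFD pool 2 or NCD pool 2. Adamts4 (0.98, SE 0.38; adjusted p = 0.0505) and Col23a1 (-1.05, SE 0.41; adjusted p = 0.0515) narrowly missed the threshold in the main fit. DESeq2 called both, Adamts4 at 0.96 (adjusted p = 0.0253) and Col23a1 at -1.09 (adjusted p = 0.0376). By edgeR, Adamts4 was called with library totals (1.07; adjusted p = 0.0245). Col23a1 was called by edgeR with the length trend removed (-1.14; adjusted p = 0.0482). With a trend in gene length removed 6 members were called, where 33.6% of all genes were, and Lamb1, Adamtsl4, Col4a3bp, Fn1 and Mmp16 lost their calls.

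Cell type markers moved in the same immunoprecipitations. Under HFD 10 of 11 neuronal markers were higher (median 0.81), as were 7 of 10 of oligodendrocyte precursors (0.72), 6 of 10 of oligodendrocytes (0.89) and 6 of 9 of microglia (0.75). By contrast 7 of 14 tanycyte markers (-0.59) and 8 of 10 ependymal markers (-0.81) were lower. The neuronal markers summed to 6408 to 8346 CPM on HFD and 4311 to 5364 CPM on NCD, those of oligodendrocytes to 627 to 1527 CPM against 447 to 809.8 CPM, and those of oligodendrocyte precursors to 106 to 176 CPM against 87.1 to 92.4 CPM. The microglial list summed to 71.5 to 93.1 CPM on HFD and 40.4 to 47.1 CPM on NCD, and the tanycyte list to 686 to 1436 CPM and 1422 to 1867 CPM. Of 12 astrocyte markers 4 were higher, and of 10 leptomeningeal markers 0 were called. Of 4 endothelial markers 1 was lower (median -0.48), with the list summing to 10.9 to 17.7 CPM on HFD and 13.1 to 28 CPM on NCD, and of 6 mural markers 2 were higher (0.21; 50.2 to 144 CPM against 80.1 to 119 CPM). The part of these shifts in the matrix results was not tested.

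Enrichment in the pulldown could also be read from libraries that took no part in the diet comparison, those of IR∆Tan mice. The fit that gave their calls also held the NCD-fed control libraries, which shared in its spread, filter and scaling. Of 14 members lower in the IR∆Tan immunoprecipitation than in its input, 13 had a positive diet difference in controls (median 0.35), and 7 were called higher and 0 lower under HFD. Over all 4410 genes lower in that immunoprecipitation, 75.3% had a positive diet difference (median 0.32), with 51% called higher and 9.27% lower. Of 6 members enriched there, 3 had a negative diet difference (median -0.10) and 2 were called lower, whereas 49.4% of 4601 enriched genes were called lower (median -0.40). Across the 37 members tested in both, Spearman's rho was -0.483, and across 13398 genes -0.564. Genes are not independent replicates, and the values describe these libraries only. Timp4, the member with the largest fall, was not called against its input in IR∆Tan mice (0.10, SE 0.15). With library totals edgeR called it higher there (0.39; adjusted p = 0.0217).

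**Figure D4:**
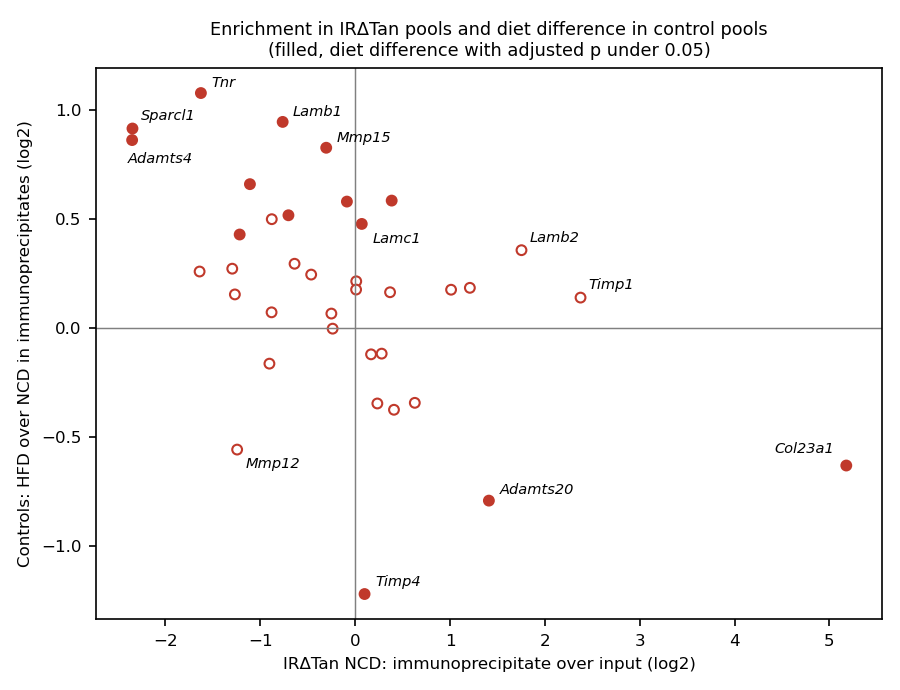
Each point is 1 of 37 members, with the log2 fold change of immunoprecipitation over input in IR∆Tan mice on the horizontal axis and that of HFD over NCD in the immunoprecipitations of controls on the vertical axis. No library is compared on both axes, although the NCD-fed control libraries were part of both fits. Tnr and Sparcl1 lie at the upper left, Col23a1 and Adamts20 at the lower right, and Timp4 near 0 on the horizontal axis.

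The third question was whether loss of the insulin receptor in tanycytes altered the matrix genes. In the immunoprecipitations 0 of 38 members were called between IR∆Tan mice and NCD-fed controls by edgeR, where 0.0148% of all genes were higher and 0.0814% lower. At an unadjusted p under 0.05 there were 6 of 38 members, near the 13.8% of all genes: Adamts4, Adamts15, Mmp12 and Col4a3bp with negative values and Col6a1 and Timp1 with positive values. DESeq2, which called 1.78% of all genes, called 1 member, Adamts4 (-0.64; adjusted p = 0.0328), which had 5.05, 6.37 and 4.73 CPM in IR∆Tan mice and 6.19, 8.51 and 10.6 CPM in controls (edgeR, -0.65, SE 0.17; adjusted p = 0.158). The median absolute difference was 0.19 and the median SE 0.21. For 2 members, Adamts15 and Mmp12, the pools did not overlap, where 11.3% of all genes had pools that did not overlap.

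**Figure D5:**
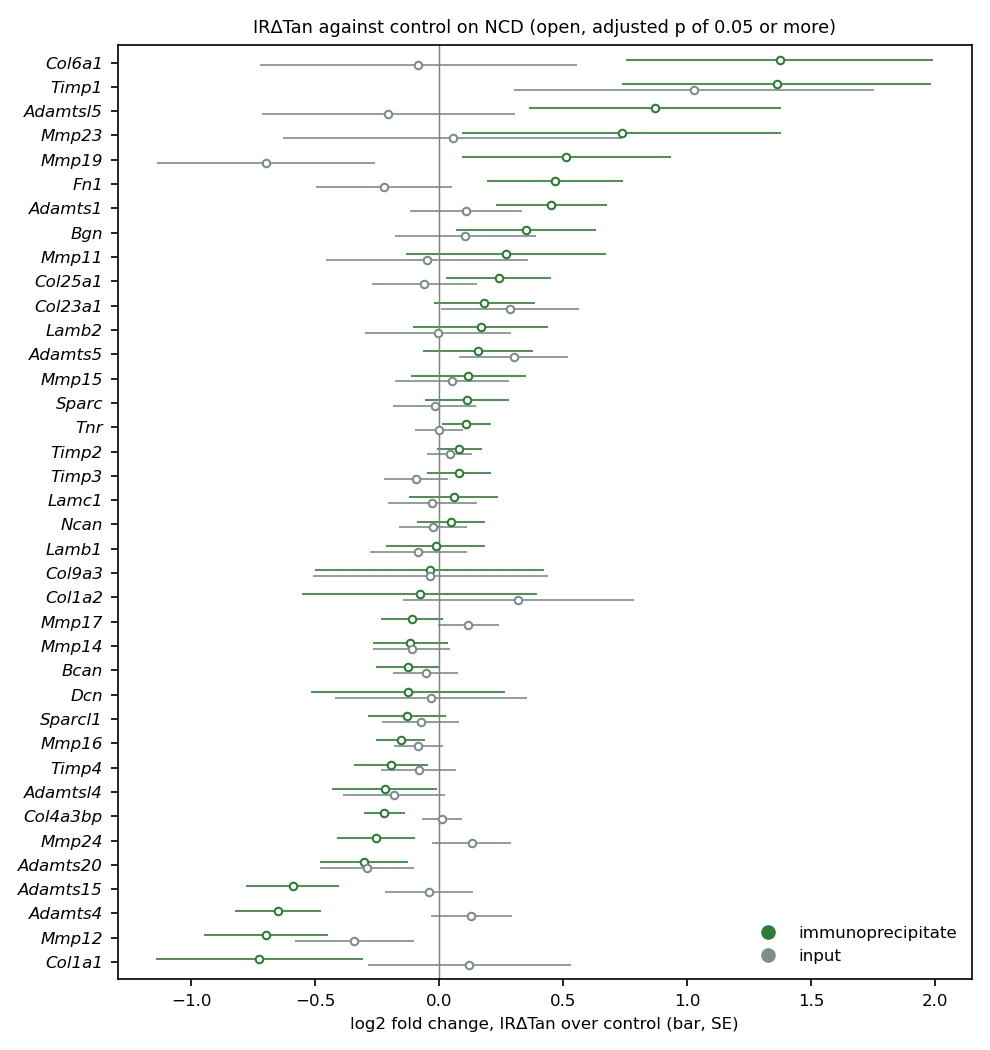
Log2 fold change of each member, IR∆Tan over control on NCD, with its SE, in immunoprecipitations and in inputs. All points are open, as none had an adjusted p under 0.05; in the immunoprecipitations Col6a1 and Timp1 have the highest values, at 1.37 and 1.36, with SEs of 0.62.

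Timp1, an inhibitor induced in injury and inflammation, had 2.55, 5.72 and 0.995 CPM in IR∆Tan immunoprecipitations and 0.668, 2.25 and 0.679 CPM in those of controls, which overlap (1.36, SE 0.62; adjusted p = 0.355, edgeR). Col6a1, a chain of the beaded filament collagen VI, had 0.657, 2.33 and 0.437 CPM in IR∆Tan mice and 0.241, 0.554 and 0.519 CPM in controls (1.37, SE 0.62; adjusted p = 0.348). Both genes were scarce, and both were highest in IR∆Tan pool 2. Mmp12 had 1.01, 1.29 and 1.29 CPM in IR∆Tan mice and 1.5, 1.97 and 2.34 CPM in controls (-0.70, SE 0.25; adjusted p = 0.259). Adamts15 had 1.73, 2.21 and 1.99 CPM against 2.63, 2.83 and 3.43 CPM (-0.59, SE 0.19; adjusted p = 0.215).

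Microglial markers, given here because Mmp12 is a macrophage gene, summed to 25.9 to 31.6 CPM in IR∆Tan immunoprecipitations and 40.4 to 47.1 CPM in those of controls. Of these markers 0 of 9 were called and 7 of 9 had an unadjusted p under 0.05 (median -0.88). Under HFD 6 of 9 were called higher (median 0.75). The Mmp12 difference given above for HFD was negative and was not called in the main fit. The part of the microglial markers in the Mmp12 values was not tested. Of 10 oligodendrocyte markers 0 were called and 5 had an unadjusted p under 0.05 (median -0.47), the list summing to 399 to 504 CPM in IR∆Tan immunoprecipitations and 447 to 809.8 CPM in those of controls. Their part in the Adamts4 values was not tested. Of the 5 members with the largest diet differences, the differences between IR∆Tan mice and controls were not called for Timp4 (-0.19, SE 0.15), Tnr (0.11, SE 0.10), Lamb1 (-0.02, SE 0.20) and Sparcl1 (-0.13, SE 0.16). Adamts2 was not tested here. It had 6.22, 8.95 and 8.66 CPM in IR∆Tan immunoprecipitations and 5.80, 3.07 and 6.23 CPM in those of controls, with means of 7.94 and 5.04 CPM. In the inputs 0 of 38 members were called by edgeR, as were 0% of all genes higher and 0% lower, 0 members had an unadjusted p under 0.05, and DESeq2 called 0.

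Genes of the same families outside the deposited comparison tables were examined in a fit of all genes of the count table that passed the expression filter. The count table held 118 symbols that fit the name rule, 77 of them outside those tables, and 57 of these could be tested in the diet fit; those named were chosen after their values were seen. Of the 4 minor chains of collagen IV, the network collagen of basement membranes, 3 were enriched in the pulldown of NCD-fed controls. Col4a5 averaged 3.97 CPM in the immunoprecipitations and 0.638 CPM in the inputs of NCD-fed controls (2.64, SE 0.43), Col4a6 averaged 2.18 and 0.382 CPM (2.50, SE 0.46), and Col4a4 averaged 1.6 and 0.266 CPM (2.57, SE 0.44). These 3 chains were called higher in the immunoprecipitation in each group. The minor chain Col4a3 averaged 0.546 CPM in the immunoprecipitations and 0.599 CPM in the inputs of NCD-fed controls (-0.13, SE 0.62) and was called higher in IR∆Tan mice alone (2.15, SE 0.67; adjusted p = 0.0137). Of the major chains, Col4a2 was lower in the immunoprecipitations of NCD-fed controls (-0.61, SE 0.18; adjusted p = 0.00796) and Col4a1 was not called (0.55, SE 0.27; adjusted p = 0.0836). In all, 10 of the 57 genes were higher and 17 lower than in the input, where 28.9% and 33.8% of all genes of that fit were called.

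Under HFD 10 of these 57 genes rose in the immunoprecipitations and 2 fell, where 23.2% and 18.6% of all genes of the fit were called. Col4a2 rose (0.69, SE 0.17; adjusted p = 0.00411), as did Acan, which encodes the aggrecan of perineuronal nets (1.16, SE 0.44), Tnc (0.84, SE 0.31) and the laminin chain Lama2 (0.74, SE 0.26), while Adamts16 (-1.11, SE 0.32) and Adamts6 (-0.93, SE 0.30) fell. Acan averaged 0.967 CPM on HFD and 0.455 CPM on NCD, and Tnc 3.46 CPM against 2.04 CPM. For Acan, Tnc and Lama2 the HFD and NCD pools overlapped (adjusted p = 0.0466, 0.0387 and 0.0356, edgeR). For Col4a2, Adamts16 and Adamts6 the pools of the diets did not overlap. Between the immunoprecipitations of IR∆Tan mice and controls 0 of 58 such genes were called by edgeR, where 0.02% of all genes of that fit were higher and 0.0649% lower. At an unadjusted p under 0.05 there were 9 of the 58, against 13.3% of all genes of that fit.

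Partners of these proteins were read from lists of receptors, binding proteins and enzymes. Of 13 tested integrins and other collagen or laminin receptors, 3 rose under HFD in the immunoprecipitations and 0 fell (median -0.07), where 26.3% of all genes rose and 25.8% fell. The 3 were Itga3 (0.77, SE 0.11) and Itgb4 (1.63, SE 0.26), subunits of laminin receptors, and Itgav (0.49, SE 0.15), a subunit of vitronectin and fibronectin receptors. Of 8 tested nidogen, proteoglycan and link protein genes 4 rose and 1 fell (median 0.50), among them Hapln4 (0.76, SE 0.13), a link protein of perineuronal nets, Vcan (0.69, SE 0.15), which encodes versican, and Efemp2 (-0.84, SE 0.15), an elastic fibre protein. Of 17 tested collagen processing genes, 1 rose and 2 fell (median -0.29), namely the lysyl hydroxylase gene Plod1 (1.07, SE 0.18) and the prolyl hydroxylase genes P3h2 (-0.69, SE 0.23) and P3h3 (-0.67, SE 0.20). Relative to the input, 8 of these 17 were higher in NCD-fed controls and 4 lower, where 36% and 32.8% of all genes were called, with Serpinh1, the collagen chaperone, at 2.58, SE 0.27, P3h2 at 1.94, SE 0.26 and Loxl3, a lysyl oxidase gene, at 1.59, SE 0.23. Between the immunoprecipitations of IR∆Tan mice and controls edgeR called 0 genes of these lists, with 2 of the 13 receptor genes, 0 of the 8 and 3 of the 17 at an unadjusted p under 0.05.

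Among the members, 12 were called in none of the comparisons of the main fits: Bgn, Dcn, Lum, Col1a1, Col1a2, Col6a1, Col9a3, Col25a1, Mmp11, Mmp23, Mmp24 and Timp3. Of these, Col6a1, Col25a1, Mmp24 and Timp3 were called in some comparison under another setting. Col6a1 was tested only in the fit of IR∆Tan and NCD-fed control mice, and Adamts2, Lama5 and Lum were tested only in the fit of the diet groups, because each is listed in 1 of the comparison tables.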

How the data were processed

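Ribosome-bound and input RNA of mouse mediobasal hypothalamus was sequenced in 20 libraries. The authors deposited estimated counts per gene; their notes name STAR, Salmon 0.14.1, GRCm38.p6 and DESeq2 1.30.0. Values were rounded to whole numbers, as 28% were not whole. The deposited comparison tables also hold the authors' fold changes and adjusted p-values, and only their gene IDs and names were used. Genes of those tables with enough counts (filterByExpr, minimum count 10) were tested with edgeR 4.0.16 (R 4.3.3, limma 3.58.1), TMM scaling and 1 mean per group and fraction, separately for the diet and IR∆Tan groups, and p-values were adjusted by Benjamini-Hochberg over all genes. DESeq2 1.42.0, other scalings, filters, sample sets, a length correction, replicate blocks and leaving out each pool were tried. Scripts were tested on simulated data. Immunoprecipitation and input of a pool share a lysate, and their deviations correlated at 0.0211 to 0.319, over 0.1 in 9 of 10 pools. Pools are the replicates. The main fits held no pool term, so both fractions of a pool entered as separate libraries. They shared 1 estimate of spread per gene, and the p-values rest on this joint spread. Between diets, 5174 of all genes were called with the immunoprecipitations fitted alone, against 7072 in the main fit. For the inputs these numbers were 4161 and 1539. Members and lists were chosen with earlier results of these data known. Named members were up to 12 per direction and comparison with the smallest p among those called, the 2 highest per kb in each role, and all tested collagen IV, laminin, TIMP, lectican and tenascin members; of other lists up to 3 genes with the smallest p were named. Others were chosen after their values were seen.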

Additional observations from a re-analysis of the deposited data

Results flagged for a closer look

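In the HFD groups, 82 sets of 4 pools were checked for a pool far from the others, and 9 held one (chance gives about 1 in 20 sets). In the immunoprecipitations Adamts15 was low in pool 1 (2.13 CPM) and Lamc1 was high in pool 3 (27.7 CPM). In the inputs pool 4 was high for Bcan (25.3 CPM), Lamc1 (19.2 CPM), Sparc (619 CPM) and Sparcl1 (802 CPM) and low for Dcn (3.83 CPM), and pool 2 was high for Col1a1 (1.47 CPM) and Lama5 (1.78 CPM).

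The HFD effect differed between immunoprecipitation and input, by the interaction term, for Tnr (1.31 on the log2 scale), Adamts2 (1.04), Sparcl1 (1.00), Lamb1 (1.00), Fn1 (1.00), Bcan (0.71), Adamtsl4 (0.63), Mmp16 (0.48), Col4a3bp (0.36) and Timp4 (-1.01).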

How the results depend on the processing

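Of the 15 members called under HFD in the immunoprecipitations, 9 were called in every alternative tried. Members called in the inputs between diets numbered 3 with DESeq2 (15.1% of all genes called), 2 with all 20 libraries (12.8%), 7 with inputs only (31.2%) and 2 with the replicate number as a block (7.52%), and 0 to 2 when 1 pool was left out. The interaction of diet and fraction called 16 members with library totals (37.1% of all genes), 6 with the length trend removed (33.6%) and 7 to 13 when 1 pool was left out. DESeq2 called 1 member (1.78% of all genes) between IR∆Tan mice and controls in the immunoprecipitations, and leaving out 1 pool gave 0 there and in the inputs. With library totals, immunoprecipitation over input changed sign for Timp2 in HFD-fed controls (0.172), IR∆Tan mice (0.0469) and NCD-fed controls (0.0783), and in HFD-fed controls for Ncan (0.371), Tnr (0.0584), Adamtsl4 (0.0424) and Mmp17 (0.0030); the cause was not tested. Leaving out 1 pool gave 12 to 16 calls for HFD in the immunoprecipitations, and for immunoprecipitation over input 14 to 20 in HFD-fed controls, 17 to 20 in IR∆Tan mice, 19 to 23 in NCD-fed controls.

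With the pool as a replicate block, immunoprecipitation over input gave 20 calls in HFD-fed controls, 20 in IR∆Tan mice, 22 in NCD-fed controls, and the interaction gave 13. Between groups, samples share only a replicate number: same-numbered deviations correlated at -0.296 to -0.0932 between HFD and NCD immunoprecipitations and at 0.0753 to 0.183 between those of IR∆Tan mice and controls. The number as a block gave 15 calls for HFD in the immunoprecipitations and 0 for IR∆Tan. In the diet comparison of the immunoprecipitations the largest SE was 0.68, for the scarce Timp1.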
